A study of Mus musculus with 8 samples.

Results

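The TET dioxygenases Tet1, Tet2 and Tet3 and their partners in active DNA demethylation, Tdg, Cxxc4 and Cxxc5, were followed in hair matrix keratinocytes, the proliferating epithelium of the follicle bulb, whose progeny form the hair. The 6 genes were chosen by name and were found in both deposited expression tables, which list 29246 genes for 5-aza-treated mice and 29647 genes for untreated mice, 26200 of them shared. Mouse RNA sequencing libraries fell into 4 groups of 2: Tet2/Tet3 double knockout (DKO) with 5-aza, wild type (WT) with 5-aza, untreated DKO and untreated WT. Skin of all 4 groups was taken at postnatal day 4.5 and its matrix cells isolated by FACS, and the treated mice had been given 50 µg of 5-aza subcutaneously at postnatal day 2.5. The drug 5-aza is a cytidine analogue that blocks maintenance of DNA methylation.

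The DKO animals carry Krt14-Cre, a recombinase driven by a keratin promoter of epithelial basal cells, so cells that never used that promoter keep both genes. The labels call the control WT and give no Cre or floxed allele for it. They do not give the deleted exons, the sort markers or whether each library was a different animal. The p-values therefore measure only the spread between these libraries.

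TET enzymes oxidise 5-methylcytosine, mainly where a cytosine is followed by a guanine, to 5-hydroxymethylcytosine and further to 5-formylcytosine and 5-carboxylcytosine. Thymine DNA glycosylase, encoded by Tdg, cuts out the last 2 of these bases, and base excision repair fills the gap with unmodified cytosine. Cxxc4 and Cxxc5 encode small CXXC zinc finger proteins that bind unmethylated CG-rich DNA and interact with Tet2, whose ancestral gene is thought to have lost its own CXXC domain to a neighbouring gene. Tet1 and Tet3 encode CXXC domains of their own.

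A promoter window of Tet3 and of Tet2, the deleted genes and those on which the genotype comparison turns, is shown because CG dinucleotides are the sites at which these enzymes act. The sequences are the 250 bases before 1 RefSeq transcript start per gene in GRCm38.p6, at chr6:83441679-83441928 on the minus strand for Tet3 and chr3:133544391-133544640 on the minus strand for Tet2, with every CG in capitals. Both windows lie inside the annotated gene spans, 17156 bases from the 5′ end of Tet3 and 499 bases from that of Tet2, because other annotated transcripts start further upstream.
Tet3: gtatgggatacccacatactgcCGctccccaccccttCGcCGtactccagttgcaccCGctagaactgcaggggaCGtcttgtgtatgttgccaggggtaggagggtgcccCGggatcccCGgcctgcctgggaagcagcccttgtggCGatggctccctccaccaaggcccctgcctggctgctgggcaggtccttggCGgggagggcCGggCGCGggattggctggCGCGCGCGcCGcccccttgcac
Tet2: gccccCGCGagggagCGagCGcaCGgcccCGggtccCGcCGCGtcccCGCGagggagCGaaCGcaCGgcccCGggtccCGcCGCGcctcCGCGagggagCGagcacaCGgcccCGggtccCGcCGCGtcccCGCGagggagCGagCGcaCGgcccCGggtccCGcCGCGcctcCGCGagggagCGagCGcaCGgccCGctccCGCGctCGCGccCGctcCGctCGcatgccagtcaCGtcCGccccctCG
CG was searched on the printed strand, and the motif reads the same on the other strand. Tet2 held 51 CG in this window, a number that 0.0703% of 27025 mouse promoter windows of this length reached. Tet3 held 17, reached by 23.6% of windows, and Cxxc4, Tdg and Tet1 held 20, 19 and 15, against a median of 6 over all windows. At least 1 CG was present in 91.7% of windows. Promoter sequences matched 5 of the 6 genes, all but Cxxc5. Methylation was not measured in these tables.

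Tet3, a target of the knockout, was lower in every DKO library than in every WT library. After 5-aza it had 6.54 and 5.99 FPKM (fragments per kilobase of gene length per 1e6 reads of the library) in DKO cells, against 10.4 and 11.5 FPKM in WT cells. Without treatment it had 6.92 and 7.31 FPKM in DKO cells, against 11.8 and 11.4 FPKM in WT cells. The DKO mean was 0.573 of the WT mean after 5-aza and 0.614 of it without treatment, so the gene-level signal in DKO cells was reduced and not lost. These values rest on 6365 and 8620 reads in DKO and 12083 and 12967 reads in WT after 5-aza, and on 3785 and 3518 reads in DKO and 6641 and 6378 reads in WT without treatment.

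With all 8 libraries fitted together and the table as a term, Tet3 fell by 0.67 ± 0.05 on the log2(FPKM + 1) scale (SE; 95% interval -0.80 to -0.55; limma, Benjamini-Hochberg adjusted p = 0.0135). It ranked 2 of 18505 genes by p and was the only one of the 6 genes to pass the threshold of 0.05, where 0.394% of all genes tested passed. At an unadjusted p under 0.05 it was joined by Tet2, where 14.8% of all genes did so. Its call was lost in 5 of the 8 fits that left out 1 library, at adjusted p between 0.0550 and 0.0690, and the difference stayed between -0.77 and -0.64 over all alternatives run. The Tet3 call was also lost when same-numbered libraries of each table were fitted as pairs (limma adjusted p = 0.104). Neither table passed alone. The limma difference was -0.72 ± 0.08 after 5-aza (adjusted p = 0.308; 0% of 16856 genes passed, with 8.94% at an unadjusted p under 0.05) and -0.63 ± 0.09 without treatment (adjusted p = 0.151; 0.00577% of 17339 genes passed, with 11.5% at an unadjusted p under 0.05). An exact two-sided permutation of genotype within tables gave p = 0.0556, the smallest that its 36 arrangements allow. The same exact permutation gave Tet2 p = 0.0556, and the other members p = 0.111 to 0.556. In the authors' deposited table the log2 fold change of DKO over WT was -0.87 after 5-aza (adjusted p = 1.48e-09) and -0.73 without treatment (adjusted p = 1.80e-07), where 0.159% and 0.486% of genes were called lower in DKO.

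Tet2, the other target, was also lower in every DKO library than in every WT library, by a smaller amount. It had 1.58 and 1.56 FPKM in DKO cells after 5-aza, against 1.81 and 2.00 FPKM in WT cells. Untreated DKO cells had 2.72 and 2.55 FPKM, against 3.23 and 3.28 FPKM in untreated WT cells. The DKO mean was 0.826 of the WT mean after 5-aza and 0.809 of it without treatment. Over both tables the limma difference was -0.20 ± 0.05 (95% interval -0.31 to -0.09), and its adjusted p of 0.123 did not pass. The added constant of 1 shrinks this value. With pseudocounts of 0.1 and 0.01 it was -0.28 and -0.29 (limma adjusted p = 0.101 and 0.0977). With voom it was -0.29 and passed (limma adjusted p = 0.0364). In the authors' deposited table Tet2 was at -0.35 after 5-aza (adjusted p = 0.400) and -0.33 without treatment (adjusted p = 0.300). Tet2 and Tet3 were the members with both DKO libraries below both WT libraries in each table, a pattern held by 3.76% of 18505 genes.

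**Figure D1:**
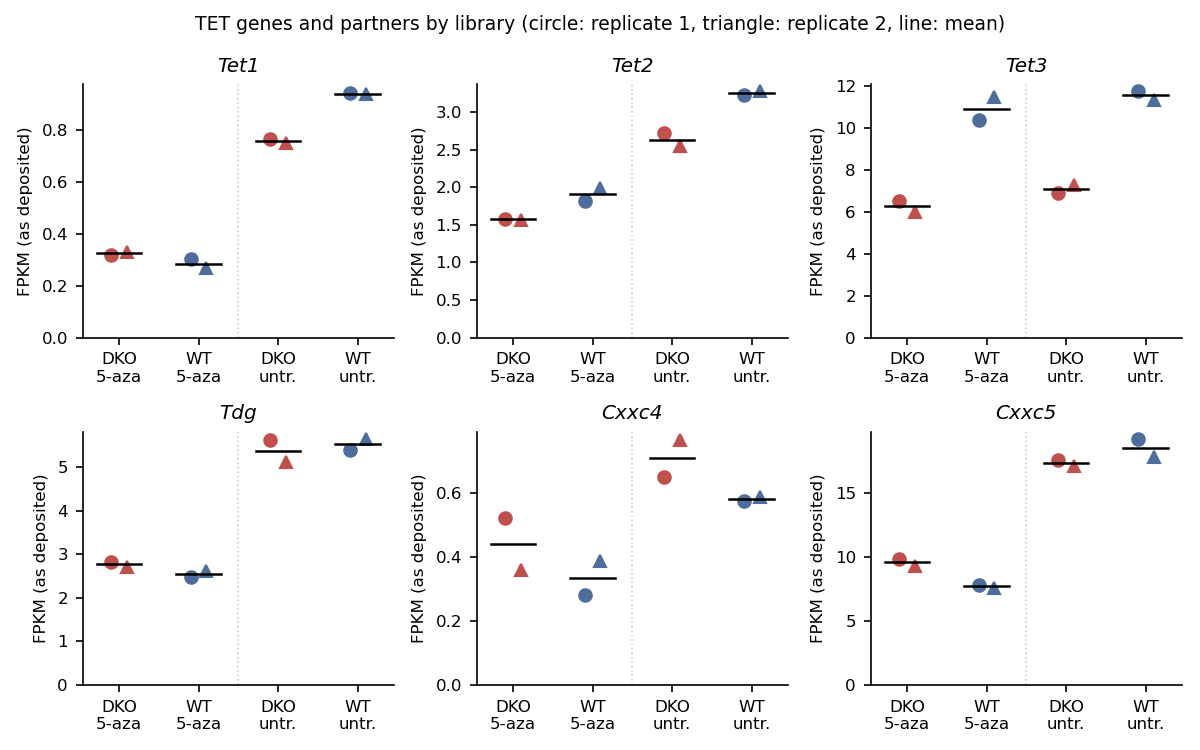
FPKM of each gene (y axis, from 0) in each library by group (x axis: DKO then WT after 5-aza, DKO then WT untreated). Circles are replicate 1, triangles replicate 2 and lines the group means; in both treatments the DKO points of Tet2 and Tet3 lie below the WT points.

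Tet1, which was not targeted, was the scarcest TET gene. It had 0.319 and 0.332 FPKM in DKO cells after 5-aza, against 0.301 and 0.269 FPKM in WT cells. It had 0.765 and 0.750 FPKM in untreated DKO cells, against 0.940 and 0.936 FPKM in untreated WT cells. The groups did not overlap in either table, with DKO above WT after 5-aza and below it without treatment. Scaled to reads in listed genes the 5-aza groups overlapped. Neither limma difference passed, at 0.04 ± 0.04 after 5-aza (adjusted p = 0.791) and -0.14 ± 0.07 without treatment (adjusted p = 0.531). At levels below 1 FPKM the added constant of 1 shrinks these values. With pseudocounts of 0.1 and 0.01 and with voom the untreated difference was -0.28, -0.30 and -0.31, and the 5-aza difference 0.14, 0.19 and 0.19. The DKO mean was 0.808 of the WT mean without treatment, beside 0.809 for Tet2, and 1.14 times the WT mean after 5-aza. In the authors' deposited table Tet1 was at 0.12 after 5-aza (adjusted p = 1.000) and -0.34 without treatment (adjusted p = 0.827).

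To compare levels between the TET genes, reads were divided by the merged exon length of GENCODE M21, because the deposited length adds up the exons of all transcripts and exceeds the merged length by 2.20 times for Tet1, 2.09 times for Tet2 and 1.48 times for Tet3. On this scale Tet3 was the highest of the TET genes in each library. The 3 genes summed to 13.3 ± 0.584 in DKO and 20.8 ± 1.36 in WT after 5-aza (reads per kb per 1e6 reads; SD, n = 2), and to 17.7 ± 0.137 in DKO and 26.0 ± 0.395 in WT without treatment. The DKO sum was 0.639 of the WT sum after 5-aza and 0.681 of it without treatment. Tet3 supplied 70.6% and 68.9% of the sum in DKO cells and 77.5% and 78.1% in WT cells after 5-aza. Without treatment it supplied 58.1% and 60.7% in DKO cells and 66.4% and 65.3% in WT cells. The share of Tet3 was thus lower in each DKO library than in each WT library of its table. In bulk libraries, fewer cells of a type and less RNA per cell cannot be told apart.

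**Figure D2:**
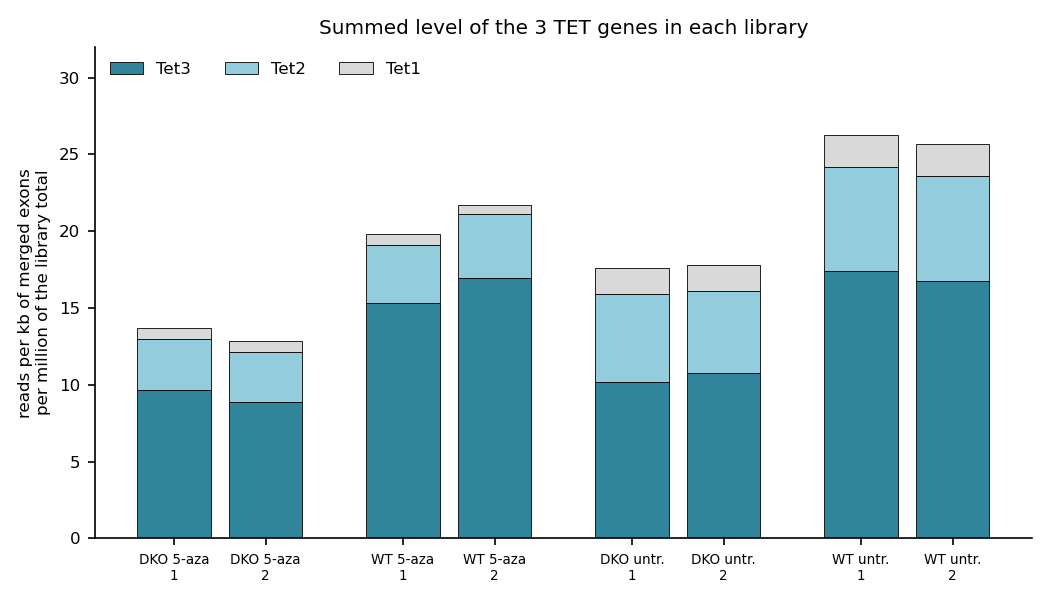
Stacked bars of Tet3, Tet2 and Tet1 in each library (y axis: reads per kb of merged exons and 1e6 reads of the library total; x axis: libraries, DKO before WT, 5-aza before untreated). The DKO sums average 13.3 after 5-aza and 17.7 untreated, against 20.8 and 26.0 in WT.

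Tdg, the glycosylase that follows the TET enzymes, showed no called difference. After 5-aza it had 2.83 and 2.71 FPKM in DKO cells, against 2.49 and 2.62 FPKM in WT cells. These groups did not overlap as deposited and overlapped when scaled to reads in listed genes. Untreated DKO cells had 5.63 and 5.12 FPKM, against 5.41 and 5.66 FPKM in untreated WT cells, and these groups overlapped. The limma difference over both tables was 0.025 ± 0.05 (95% interval -0.09 to 0.14; adjusted p = 0.861), and its sign was negative, at -0.024 and -0.013, when values were scaled to reads in listed genes or by median ratios. A processed pseudogene, Tdg-ps, could share reads with Tdg. It held 27 to 45 reads, 1.60% to 3.10% of the pair, in untreated libraries and 0 to 1 read after 5-aza.

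Cxxc5 was the CXXC partner with more signal, and its genotype difference had opposite signs in the 2 tables. After 5-aza it had 9.85 and 9.35 FPKM in DKO cells, against 7.84 and 7.57 FPKM in WT cells. Without treatment it had 17.6 and 17.1 FPKM in DKO cells, against 19.2 and 17.8 FPKM in WT cells. Both DKO libraries were above both WT libraries after 5-aza and below them without treatment, where the groups overlapped when scaled to reads in listed genes. The limma difference was 0.28 ± 0.07 after 5-aza (adjusted p = 0.431) and -0.09 ± 0.10 without treatment (adjusted p = 0.798), so neither passed. The untreated value was -0.036 without WT replicate 1 and -0.14 without WT replicate 2. The deposited length of Cxxc5 is 0.754 of the merged exon length of GENCODE M21, so its gene model differs from that annotation.

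Cxxc4 was low in every library, with 222 to 354 reads. It had 0.523 and 0.359 FPKM in DKO cells after 5-aza, against 0.281 and 0.387 FPKM in WT cells, and these groups overlapped. Untreated DKO cells had 0.650 and 0.766 FPKM, against 0.575 and 0.587 FPKM in untreated WT cells, and these did not overlap. The limma difference over both tables was 0.11 ± 0.05 (95% interval -0.01 to 0.23; adjusted p = 0.374). It was 0.28 and 0.33 with pseudocounts of 0.1 and 0.01 and 0.32 with voom, with limma adjusted p between 0.353 and 0.449. Counted over the 6 genes, both DKO libraries lay above both WT libraries for Tet1, Tdg and Cxxc5 after 5-aza, where 28% of all genes did so, and below them for Tet2 and Tet3, where 11.6% did. Without treatment they lay above for Cxxc4, where 24.1% of genes did so, and below for Tet1, Tet2, Tet3 and Cxxc5, where 19.3% did.

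**Figure D3:**
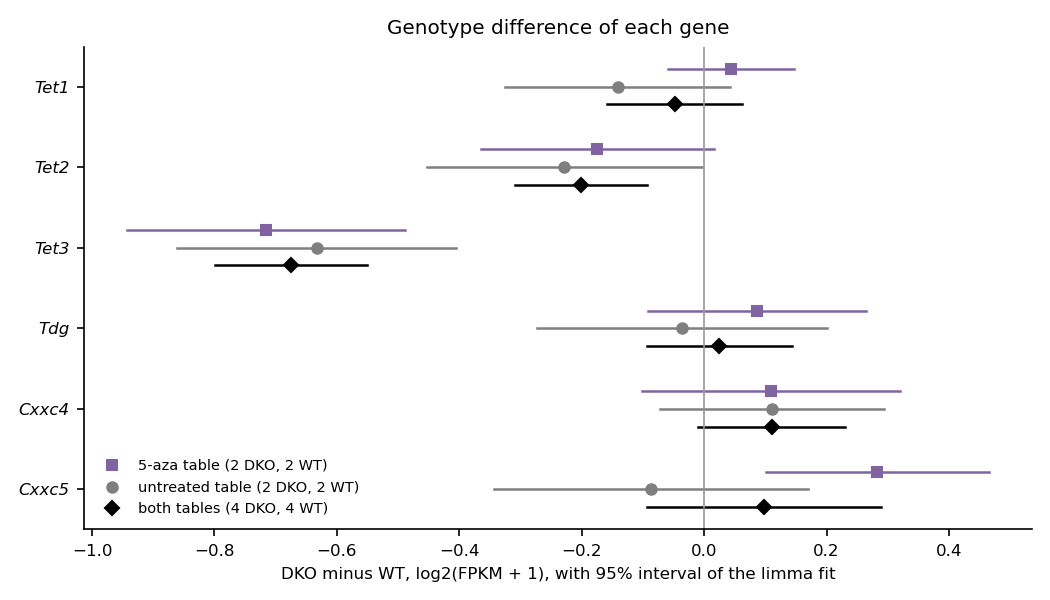
Difference between DKO and WT in log2(FPKM + 1) for each gene (x axis) with the 95% interval of the limma fit. Squares are the 5-aza table, circles the untreated table and diamonds both tables. The constant of 1 shrinks the differences of Tet1, Cxxc4 and, to a lesser degree, Tet2, and Tet3 lies between -0.72 and -0.63 in the 3 fits.

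No member passed the test of whether the genotype difference differed between the tables, where 0.027% of 18505 genes passed and 6.08% were at an unadjusted p under 0.05. That interaction, the 5-aza difference minus the untreated difference, was -0.08 ± 0.11 for Tet3 (95% interval -0.35 to 0.18; limma adjusted p = 0.969) and 0.05 ± 0.10 for Tet2 (95% interval -0.18 to 0.29; limma adjusted p = 0.974). Over the alternatives run these lay between -0.16 and -0.017 for Tet3 and between -0.011 and 0.099 for Tet2. The effect of 5-aza itself was not tested, because the tables were normalised separately. The direction between tables depends on the scale for Tet3. Scaled to the library total, on merged exons, it averaged 9.25 in DKO and 16.1 in WT after 5-aza and 10.5 in DKO and 17.1 in WT without treatment. Scaled to the reads in listed genes it averaged 22.4 in DKO and 41.6 in WT after 5-aza, against 17.4 in DKO and 29.1 in WT without treatment. Both denominators are unlike between the tables. Only the 5-aza table had rows for reads not aligned or of low alignment quality, which its library totals take in. Their deposited means were 5632073 and 2341211 reads. The 5-aza table also listed 25 mitochondrial genes, against 0 in the untreated table. The means of all members other than Tet3 were lower in the 5-aza table on both scales and in both genotypes. Cell type markers differed between the tables too. Fibroblast marker sums were 67.9 to 144 FPKM after 5-aza and 468 to 1351 FPKM without treatment. Dermal papilla sums were 19.6 to 50.7 and 113 to 187 FPKM. Matrix and shaft sums overlapped, at 521 to 934 and 580 to 1123 FPKM. The part of cell make-up in the members' levels was not tested. The Cxxc4 libraries overlapped between the tables when scaled to the reads in listed genes.

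The order of levels on merged exons in untreated WT cells was Tet3 at 17.1 ± 0.460, Cxxc5 at 14.0 ± 0.740, Tdg at 13.8 ± 0.450, Tet2 at 6.81 ± 0.0718, Tet1 at 2.06 ± 0.00664 and Cxxc4 at 0.733 ± 0.0105 (SD, n = 2). Cxxc5 and Tdg did not differ beyond their spread. The place of Cxxc5 depends on the length used. On deposited lengths Cxxc5 was at 18.5 ± 0.981 and Tet3 at 11.6 ± 0.312 in untreated WT cells, so Cxxc5 stood above Tet3. The gene model on which the reads of Cxxc5 were counted is not stated. In untreated DKO cells Tdg averaged 13.4 ± 0.897, Cxxc5 13.1 ± 0.262 (17.4 ± 0.348 on its deposited length) and Tet3 10.5 ± 0.412, so Tet3 stood below both there.

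Other genes of the pathway were described from 3 lists. None of the 19 base excision repair and glycosylase genes tested passed in either table. Their median log2 difference was 0.02 after 5-aza and 0.04 without treatment, against 0.03 and 0.01 over all genes tested. The 2 with the smallest p over both tables were Lig1, which seals repaired DNA, at -0.10 (limma adjusted p = 0.406), and Neil3, a glycosylase, at -0.12 (limma adjusted p = 0.442). None of the TET cofactor and regulator genes passed, among 21 tested after 5-aza and 20 without treatment, with medians of 0.08 after 5-aza and -0.04 without treatment. Ogt, which adds O-GlcNAc to proteins and binds TET proteins, was at 0.12 over both tables (limma adjusted p = 0.248), with 5.32 and 5.13 FPKM in DKO and 4.70 and 4.95 FPKM in WT after 5-aza, and 10.5 and 10.6 FPKM in DKO and 9.57 and 9.33 FPKM in WT without treatment. Capn1, a calpain protease, was at 0.18 (limma adjusted p = 0.325). Ebf1, a transcription factor named here after its value was seen, was the lowest gene of the untreated lists at -0.78 ± 0.24 (limma adjusted p = 0.363). None of the 8 other CXXC genes passed, with medians of 0.03 after 5-aza and -0.0041 without treatment. Fbxl19 was at 0.13 (limma adjusted p = 0.474) and Dnmt1, the maintenance methyltransferase, at -0.09 (limma adjusted p = 0.577).

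**Figure D4:**
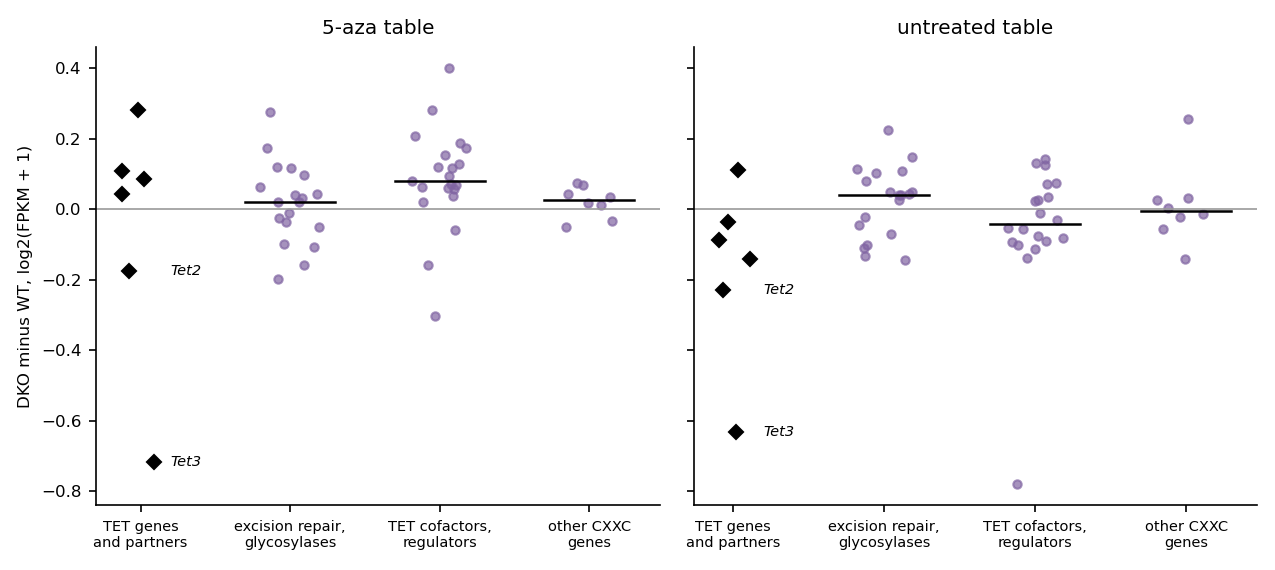
Difference between DKO and WT in log2(FPKM + 1) (y axis) for the 6 genes (diamonds) and the genes of 3 pathway lists (circles, medians as lines), after 5-aza at left and untreated at right. Tet3 lies at -0.72 and -0.63, and the list medians lie between -0.04 and 0.08.

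The genes lie on several chromosomes in GRCm38. Tet3 (ENSMUSG00000034832) spans chr6:83362373-83459084 and Tet2 (ENSMUSG00000040943) spans chr3:133463679-133545139, both on the minus strand. Cxxc4 (ENSMUSG00000044365) lies at chr3:134236484-134262161, 691345 bases from Tet2. Tet1 (ENSMUSG00000047146) lies at chr10:62804570-62908996, Tdg (ENSMUSG00000034674) at chr10:82629828-82650799 and Cxxc5 (ENSMUSG00000046668) at chr18:35829818-35861687. The neighbours of Tet3, Bola3 at 2237 bases and Dguok at 21133 bases, had limma differences over both tables of -0.07 (adjusted p = 0.662) and -0.01 (adjusted p = 0.975). The neighbour Ppa2 of Tet2 had 0.03 (limma adjusted p = 0.872). The strand setting of the counting is not stated, so antisense reads cannot be told apart. The antisense transcript B230319C09Rik, which overlaps Tet3, held 2 to 12 reads per library. On the same strand as Tet3 and inside it, 5430434F05Rik held 148 to 451 reads and Mir6374 held 2 to 16.

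The genes whose 8 table-centred values lay nearest to each member were named by root mean square difference among 15698 genes. For Tet3 they were 5330406M23Rik at 0.0768, Gm43804 at 0.107 and Mir6352 at 0.108, against a spread of 0.341 in Tet3 itself. For Tet2 they were Srl, Gm45779 and Phf19, for Tet1 Klc2, Pfn4 and Ctbs, and for Tdg Zfp131, Tmem126a and Mbnl2. For Cxxc4 they were Plekhg3, Vapa and Sirt6, and for Cxxc5 Fgfr2, Pskh1 and Tgif2. These values were on the log2(FPKM + 1) scale, where the constant shrinks low genes, so a near gene need not share the member's fold change. Without treatment 5330406M23Rik was at 0.0430 and 0.0734 FPKM in DKO and 0.816 and 0.692 FPKM in WT.

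Library totals were 39493929 to 58353167 after 5-aza and 19528602 to 22837436 without treatment, and listed genes held 38.4% to 42.4% and 55.8% to 62.0% of them. The kinds of reads in these totals differ between the tables, as given above. Of 12 hair matrix and shaft markers 11 were listed and none was at 0 in every library. They summed to 822 and 934 FPKM in DKO and 596 and 521 FPKM in WT after 5-aza. Without treatment they summed to 984 and 1123 FPKM in DKO and 580 and 729 FPKM in WT. Krt5 was the largest single part, at 544 and 578 FPKM in untreated DKO and 298 and 372 FPKM in untreated WT. Krt5 and Krt14 are keratins of epithelial basal cells and Krt17 is one of the companion layer. The sums of this list therefore do not measure matrix and shaft alone. Without treatment Krt14, Krt35, Lef1, Hoxc13 and Foxn1 were also higher in both DKO libraries. Krt17, Msx2, Shh and Dlx3 overlapped and Trps1 was lower. The 10 dermal papilla markers summed to 19.6 and 39.1 FPKM in DKO and 50.7 and 22.7 FPKM in WT after 5-aza, and to 115.5 and 113.3 FPKM in DKO and 187.1 and 153.6 FPKM in WT without treatment. The 8 inner root sheath markers summed to 325 and 420 FPKM in DKO and 442 and 462 FPKM in WT after 5-aza. Without treatment they summed to 325 and 472 FPKM in DKO and 306 and 251 FPKM in WT. There Krt27, Krt71, Krt73 and Tchh were higher in both DKO libraries, Krt25, Krt28 and Gata3 were lower and Krt72 overlapped. Krt28 was at 1.98 and 2.85 FPKM in untreated DKO and 70.4 and 70.7 FPKM in untreated WT. The 8 immune markers summed to 1.70 and 2.14 FPKM in DKO and 1.68 and 1.25 FPKM in WT after 5-aza, and to 14.1 and 17.5 FPKM in DKO and 4.97 and 7.61 FPKM in WT without treatment. The 8 melanocyte markers summed to 29.4 and 139.7 FPKM in DKO and 97.6 and 22.1 FPKM in WT after 5-aza, a larger gap within each genotype than between them, and to 41.6 and 42.9 FPKM in DKO and 34.0 and 35.7 FPKM in WT without treatment. The 5-aza library with the higher sum had the lower Tet3 value in both genotypes. Tet3 was at 5.99 against 6.54 FPKM in DKO and at 10.4 against 11.5 FPKM in WT. The matrix and shaft, dermal papilla, immune and fibroblast sums ordered the 5-aza libraries alike, and the inner root sheath sums did so in DKO only. Without treatment the library with the higher melanocyte sum had the higher Tet3 value in DKO, 7.31 against 6.92 FPKM. In untreated WT it had the lower value, 11.4 against 11.8 FPKM. The 7 fibroblast markers summed to 97.2 and 140.3 FPKM in DKO and 144 and 67.9 FPKM in WT after 5-aza. Without treatment they summed to 1351 and 1135 FPKM in DKO and 468 and 1258 FPKM in WT, where replicate 1 stood apart. Xist was at 74.4 and 1.19 FPKM in untreated DKO and 82.1 and 0.327 FPKM in untreated WT libraries, while each 5-aza library held both Xist and the Y-linked Ddx3y. After 5-aza Xist was at 4.60 and 3.65 FPKM in DKO and 16.9 and 23.1 FPKM in WT. Ddx3y was at 2.08 and 2.00 FPKM in DKO and 1.24 and 0.917 FPKM in WT. Neither gene overlapped between the 5-aza genotypes, so the sex make-up that these genes mark cannot be told apart from genotype there. The part of these differences in the TET values was not tested.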

How the data were processed

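RNA sequencing of sorted mouse hair matrix keratinocytes was used from 8 libraries in 4 groups. Per the submitters' processing notes, the authors used STAR, HTSeq, Trim Galore and DESeq2 with build GRCm38 (mm10), with no versions given in the sources used here. The labels name 2 library kits and tie neither to a group. The authors deposited 2 tables with FPKM per library. As deposited, the mean column is a signal, reads divided by a size factor and averaged over a table's libraries by the authors. The authors' log2 fold changes run WT over DKO, as the library columns show, and are printed here with the sign turned to DKO over WT. A test statistic, a score, was also deposited and was not used. The deposited p-value columns hold the raw and adjusted p of the authors' test. The deposited length is in bases.

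Value times length, divided by its smallest positive product in each library, gave whole numbers within 0.001 for 100% of values. These were taken as reads. The unit of these columns, not named in their headers, was read as FPKM. Any other value scaled by length and a constant per library would give whole numbers too. The library totals rest on that reading of the unit. A gene was kept with 10 or more reads, scaled to the median of reads in listed genes, in 2 libraries and 15 or more in all. Log2(FPKM + 1) was fitted with limma 3.58.1 (R 4.3.3) and a mean-variance trend, within each table, over both tables with the table as a term, and with an interaction. Two-sided tests were used, with Benjamini-Hochberg adjustment over all genes tested, at a threshold of 0.05. The fit was run on simulated data with a fixed spread and planted changes larger than that of Tet3. That run checks the code and not the calls in these libraries. Rows that name no gene were left out: 3 in the untreated table and 5 in the 5-aza table. Alternatives were pseudocounts, filters, scalings, voom, a replicate block and leaving out each library. The named genes were the members, the 3 nearest genes to each, and from each pathway list those past the threshold or else the 2 with the smallest p over both tables. Members and lists were chosen with earlier results of these data known. Sequences are from RefSeq, GRCm38.p6.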

Additional observations from a re-analysis of the deposited data

Results flagged for a closer look

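The genotype difference of Tet1 had opposite signs in the 2 tables, with both DKO libraries above both WT libraries after 5-aza and below them without treatment. The 5-aza difference minus the untreated difference was 0.19 ± 0.07 on the log2(FPKM + 1) scale (limma, unadjusted p = 0.0315, adjusted p = 0.779), and scaled to reads in listed genes the 5-aza groups overlapped. Because Tet1 lies below 1 FPKM, the added constant sets the size of this value. It was 0.42 and 0.49 with pseudocounts of 0.1 and 0.01 and 0.50 with voom, and lay between 0.17 and 0.50 over 18 alternatives, none of which passed after adjustment. Cxxc5 showed the same opposite order as deposited, although its untreated groups overlapped on that scale, with a difference between tables of 0.37 ± 0.10 (limma, unadjusted p = 0.00854, adjusted p = 0.586). Its value lay between 0.32 and 0.42 over 18 alternatives, with adjusted p between 0.277 and 1.000. Neither passed after adjustment over all genes, and the cause was not tested.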

How the results depend on the processing

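Of the 6 genes, 1 passed over both tables (Tet3). The number was 2 with voom on recovered reads (Tet2 also passed, limma adjusted p = 0.0364), 0 with a replicate block (Tet3, limma adjusted p = 0.104) and 0 to 1 when 1 library was left out. The Tet3 call was lost without either untreated DKO library, either 5-aza DKO library or WT 5-aza replicate 1. In the untreated table the number was 0, and 1 with voom (Tet3, limma adjusted p = 0.0324). In the 5-aza table it was 0, and 1 with a replicate block whose 5-aza numbers were crossed, an alternative chosen after seeing the data (Tet3, limma adjusted p = 0.0463). Same-numbered libraries did not deviate together across genes, with correlations of 0.03 without treatment and -0.59 after 5-aza. The numbers were therefore not taken as pairs. The untreated libraries of the same number were nevertheless alike in Xist. It was at 74.4 FPKM in DKO and 82.1 FPKM in WT for replicate 1, and at 1.19 and 0.327 FPKM for replicate 2. The interaction number was 0 in every alternative run.

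Over all genes, 73 passed over both tables, against 24 with no filter, 478 with voom, 0 with the replicate block and 0 to 25 without 1 library. Without treatment, 1 gene passed, against 8 and 6 with pseudocounts of 0.1 and 0.01, 147 with voom, 13 with the replicate block and 0 with no filter, with a filter on mean FPKM or with no variance trend. After 5-aza, 0 passed under each other setting run, and 91 with crossed numbers. The interaction gave 5, against 1 with either lower pseudocount or voom, 2 with no filter, the FPKM filter, no trend or other scalings, 0 with either block and 0 to 8 without 1 library.

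Of the single-gene values, 356 kept direction and side of the threshold, 3 gained and 6 lost the call, and 13 changed sign. The untreated Tdg difference lay between -0.094 and 0.021 when 1 library was left out, with the positive value without DKO replicate 2. Over both tables it was -0.024 scaled to listed genes and -0.013 by median ratios. The Tet2 interaction was -0.011 scaled to listed genes. The Cxxc4 interaction, -0.0011 as reported, was 0.068 and 0.11 with the lower pseudocounts, 0.019 scaled to listed genes, 0.020 by median ratios, 0.080 with voom, and between -0.083 and 0.081 when 1 library was left out. The cause of these changes was not tested. Tet1 rests on 419 to 730 reads per library and Cxxc4 on 222 to 354.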
